A study of Homo sapiens with 18 samples.

Results

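This report compares how 2 human cell lines, labelled XG1 and AMO1, changed their RNA when given 100 nM YKL-5-124 for 6 h. The measurement is a difference of differences. For each gene the change from DMSO to 100 nM in AMO1 was subtracted from the same change in XG1, on the log2(FPKM + 1) scale, where FPKM counts fragments per length of transcript and per size of the library. A positive value says that the gene moved more upward, or less downward, in XG1. The comparison used 12 of the 18 libraries of the series, in 4 groups of 3: XG1 in DMSO, XG1 at 100 nM, AMO1 in DMSO and AMO1 at 100 nM, all at 6 h. Of the 26249 genes in the tables, 12204 reached a group mean of 1 FPKM and were tested. The 8949 of these with a mean of 1 FPKM or more in DMSO of both lines are described apart, because a gene that a line hardly expresses cannot fall there.

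YKL-5-124 is a covalent inhibitor of CDK7. CDK7 is a kinase that, with cyclin H (CCNH) and MNAT1, forms part of the general transcription factor TFIIH and phosphorylates RNA polymerase II near gene starts, and the same trimer activates the kinases that drive the cell cycle. Genes whose RNA is short-lived or whose transcription depends on E2F factors are therefore often read out after CDK7 inhibition. AMO1 and XG1 are both known as lines derived from human plasma cell tumours, and the series groups them as resistant myeloma lines. DMSO is the solvent, and nothing in the labels gives separate cultures, so the p-values take in no more than the spread of these libraries, and that spread may be technical.

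The libraries labelled XG1 did not carry the markers of their label. Of 18 plasma cell markers, 2 were at 10 FPKM or more in all 6 XG1 libraries and 9 were under 1 FPKM in all 6. In AMO1 12 were at 10 FPKM or more and 1 was under 1. The summed level of the list was 212 to 276 FPKM in XG1 and 6270 to 8500 FPKM in AMO1. IRF4, a transcription factor that defines plasma cells, lay between 0.1 and 0.221 FPKM in the XG1 libraries and between 20 and 34.2 in AMO1. Of 28 erythroid markers, 19 were at 10 FPKM or more in all 6 XG1 libraries and 3 in AMO1, with summed levels of 4730 to 5170 FPKM and 286 to 536 FPKM. The fetal globin gene HBG1 was at 1170 to 1400 FPKM in XG1 and at 0.430 to 7.36 FPKM in AMO1. "XG1" below means the libraries so labelled. T cell and myeloid markers summed to 33.3 to 43.2 FPKM in XG1 and 6.76 to 10.9 in AMO1, and stromal and epithelial markers to 290 to 409 and 167 to 257 FPKM. The ranges of all 4 lists did not overlap between the lines, and their part in the differences of response was not tested. In bulk RNA, fewer cells of a type and less RNA per cell cannot be told apart.

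The libraries had 9495 to 10571 genes at 1 FPKM or more, correlated at 0.959 to 0.974 across genes within groups, and differed in 44 spike-in RNAs by median deviations of -0.08 to 0.07 log2. AMO1 DMSO replicate 3 stood apart from its group. Its median over the tested genes was 2.64 log2, beside 2.85 and 2.95 in replicates 1 and 2, and ATF4, for one, was at 242 FPKM beside 513 and 489. AMO1 100 nM replicate 2 had the lowest median of the 12 libraries, 2.46 log2. Many of the calls and list counts below that AMO1 DMSO replicate 3 changed are also given without it.

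Few genes passed the test of a difference between the 2 responses. limma (Benjamini-Hochberg adjusted p under 0.05) called 19 of 12204 genes, or 0.156%, of which 11 (0.0901%) were more positive in XG1 and 8 (0.0656%) more negative. Among the 8949 genes present in DMSO of both lines it called 5, or 0.0559%: RRM2 and CYB561D2 were more negative in XG1 (0.0223%), and FAM174A, ATAD3B and LOC100507424 more positive (0.0335%). LOC100507424 was chosen after its values were seen. The other 14 had under 1 FPKM in DMSO of at least 1 line. At an unadjusted p under 0.05 there were 1071 genes (8.78%), and 585 (6.54%) among those present in both lines. Without AMO1 DMSO replicate 3 the count was 35 (26 more positive, 9 more negative), including 13 in both lines' set, and 16 of the 19 were still among the 35. HEMGN, ZSCAN12P1 and LOC100507424 lost their calls there. LOC100507424 then had 1.41 log2 (adjusted p 0.0524), beside 1.38. RRM2, ATAD3B, CIITA, CYB561D2 and ZSCAN12P1 kept theirs in 1 of the 12 fits that left out 1 library. With each library centred on its median the split was 13 more positive and 53 more negative, beside 11 and 8. It was 33 and 43 with quantile normalization and 7 and 3 with spike-in scaling. The centring moved the median difference over all genes from 0.07 to -0.10 log2.

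Each line's own response was called in many more genes than the difference between the lines. In XG1 807 genes (6.61%) passed the test, 321 higher (2.63%) and 486 lower (3.98%). In AMO1 268 genes (2.2%) passed, 53 higher (0.434%) and 215 lower (1.76%). That split was 289 higher and 188 lower with libraries centred, 205 and 254 with quantile normalization, and 51 and 207 with spike-in scaling. The balance of directions in AMO1 thus moved with the first 2 scalings and hardly with the spike-ins. The counts without AMO1 DMSO replicate 3 were 1189 in XG1, of which 768 (6.29%) were lower, and 942 in AMO1, of which 882 (7.23%) were lower. Among genes present in both lines, 595 (6.65%; 1.97% higher and 4.68% lower) passed in XG1 and 186 (2.08%; 0.425% higher and 1.65% lower) in AMO1. Both arms called 107 genes, which is 18% of the XG1 calls and 57.5% of the AMO1 calls. Of the 107, 84 fell in both, 23 rose in both and 0 moved in opposite directions. The arms share no library, but the fit gave each gene 1 spread for both lines, so the calls of the arms are not independent. Across the 8949 genes, which are not independent replicates, the 2 responses correlated at a Pearson r of 0.383 and a Spearman rho of 0.447. The SD of the changes was 0.447 log2 in XG1 and 0.348 in AMO1.

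**Figure D1:**
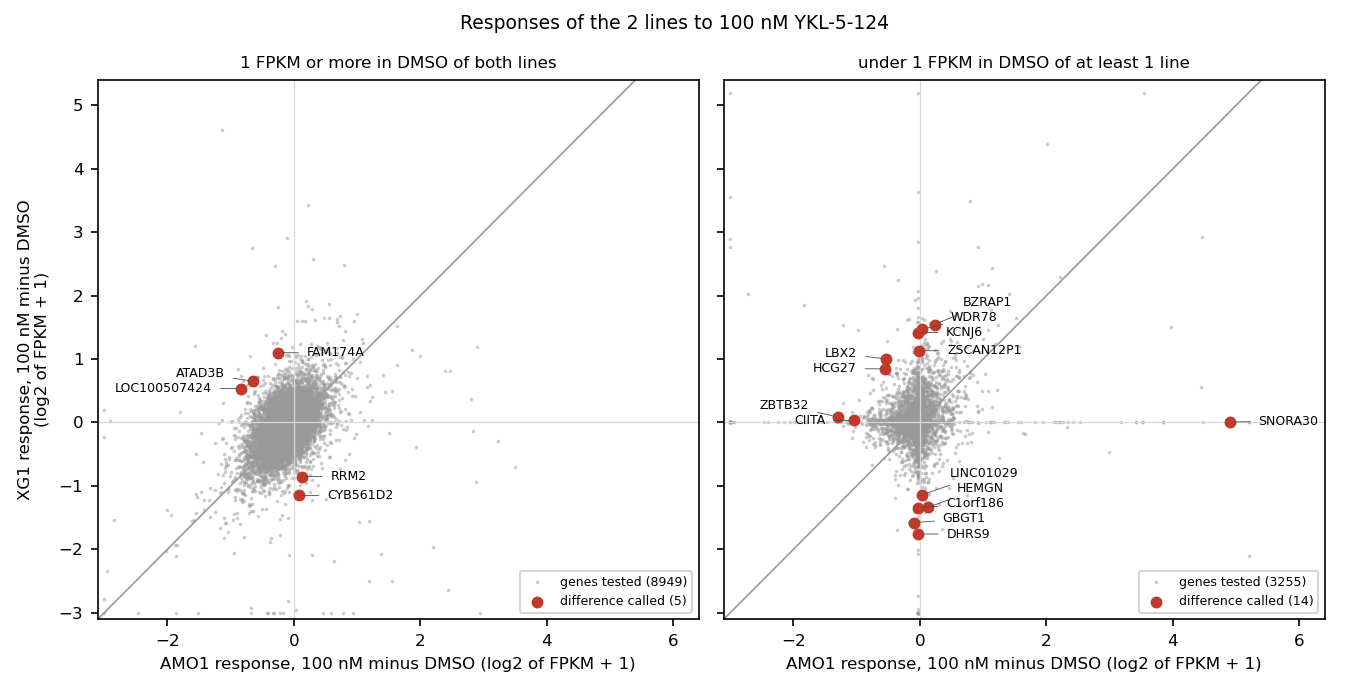
Change from DMSO to 100 nM in AMO1 (x axis) and in XG1 (y axis), both as log2 of FPKM + 1, for genes at 1 FPKM or more in DMSO of both lines (left, 8949) and for the other 3255 tested (right). Red points are the 19 genes whose difference was called, the diagonal marks equal changes, and values below -3 or above 5.2 are drawn at the edge. The 5 called genes on the left changed by amounts that differ by 0.98 or more, while most of the 14 on the right lie near 0 in 1 line.

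RRM2 fell in XG1, and its change in AMO1 did not pass the test. It encodes the small subunit of ribonucleotide reductase, which makes deoxynucleotides, and is a classical E2F target. RRM2 in XG1 was at 37.2, 37.4 and 34.8 FPKM in DMSO and at 18.4, 20.3 and 20.4 at 100 nM. In AMO1 it was at 202, 201 and 148 FPKM in DMSO and at 197, 190.0 and 211 at 100 nM. The XG1 groups were apart and the AMO1 groups overlapped. Being apart in at least 1 line was a condition for naming most called genes, here and below, so it adds no support. RRM2 fell by 0.85 log2 in XG1 (adjusted p 0.000746) and changed by 0.13 in AMO1 (adjusted p 0.744), a difference of -0.98 ± 0.19 (SE, limma adjusted p 0.0483). Leaving out AMO1 DMSO replicate 3, the difference was -0.83 (adjusted p 0.0214). Leaving out any of the other 11 libraries ended the call, with adjusted p of 0.0512 to 0.135.

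RRM2 was the only member of the list of 44 E2F targets and G1/S genes that the difference test called. The list's median difference was -0.12 log2, beside 0.07 over all genes tested, and 15 members lay above 0. In XG1 12 of the 44 fell and 0 rose, and in AMO1 1 fell and 0 rose, where 3.98% and 1.76% of all genes tested fell. The 12 included PCNA, the sliding clamp of DNA polymerases, MCM3, a subunit of the replicative helicase, and UNG, a uracil-DNA glycosylase. PCNA went from a mean of 151 to 73.9 FPKM in XG1 (-1.03 log2, adjusted p 0.00373) and from 135 to 125 in AMO1 (-0.10, adjusted p 0.899), a difference of -0.93 whose adjusted p of 0.253 missed the threshold. MCM3 had a difference of -0.66 and UNG of -0.44, with adjusted p of 0.576 and 0.553. GINS3, a replication factor, fell in both lines, by 1.03 in XG1 and 1.16 in AMO1. The counts of this list in both lines leaned on 1 library. Without AMO1 DMSO replicate 3, 8 members fell in AMO1 and 18 in XG1 (7.23% and 6.29% of all genes). The XG1 count moved although no XG1 library was left out. Each gene had 1 fitted spread for both lines. The median difference was then 0.02, beside 0.17 over all genes. PCNA, MCM3, UNG and GINS3 were named after their values were seen.

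CYB561D2, FAM174A and ATAD3B completed the named genes that both lines express. CYB561D2 belongs to the cytochrome b561 family of membrane electron carriers. It was at 12.9, 14.4 and 13.6 FPKM in XG1 DMSO and at 4.94, 6.17 and 5.71 at 100 nM, and in AMO1 at 17.8, 22.2 and 20.4 and then 21.1, 20 and 22.6. Only the XG1 groups were apart. The gene fell by 1.15 log2 in XG1 (adjusted p 0.000457) and changed by 0.08 in AMO1 (adjusted p 0.928), a difference of -1.23 ± 0.25 (SE, adjusted p 0.0486). FAM174A encodes a membrane protein. It was at 3.20, 2.03 and 2.71 FPKM in XG1 DMSO and at 7.57, 6.15 and 6.58 at 100 nM, and in AMO1 at 24.6, 26.9 and 28.5 and then 20.6, 23.3 and 23.0. The groups were apart in both lines, in opposite directions. The rise in XG1 was 1.10 log2 (adjusted p 0.00031), the AMO1 value was -0.25 (adjusted p 0.505), and the difference was 1.35 ± 0.23 (adjusted p 0.0164).

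ATAD3B, a mitochondrial membrane ATPase, was at 12.5, 12.6 and 8.02 FPKM in XG1 DMSO and at 20.4, 16.2 and 16.5 at 100 nM. In AMO1 it was at 47.3, 54.6 and 41.0 FPKM and then at 26.9, 32.4 and 30.6. The groups were apart in both lines, upward in XG1 and downward in AMO1. The XG1 change was 0.65 log2 (adjusted p 0.0321) and the AMO1 change -0.64, whose adjusted p of 0.0642 missed the threshold. The difference was 1.29 ± 0.25 (adjusted p 0.0483). ATAD3B has near-identical copies, among them ATAD3A, so its share of their reads is uncertain. LOC100507424, an uncharacterised locus, had a difference of 1.38 ± 0.28 (adjusted p 0.0486) at low levels: 1.04 to 2.09 FPKM in XG1 DMSO, 2.02 to 4.16 at 100 nM, 2.69 to 3.65 in AMO1 DMSO and 1.22 to 1.29 at 100 nM. When only the 8949 genes were tested, none of these 5 passed, with a lowest adjusted p of 0.068, while 585 of the 8949 genes had an unadjusted p under 0.05 in the main fit.

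**Figure D2:**
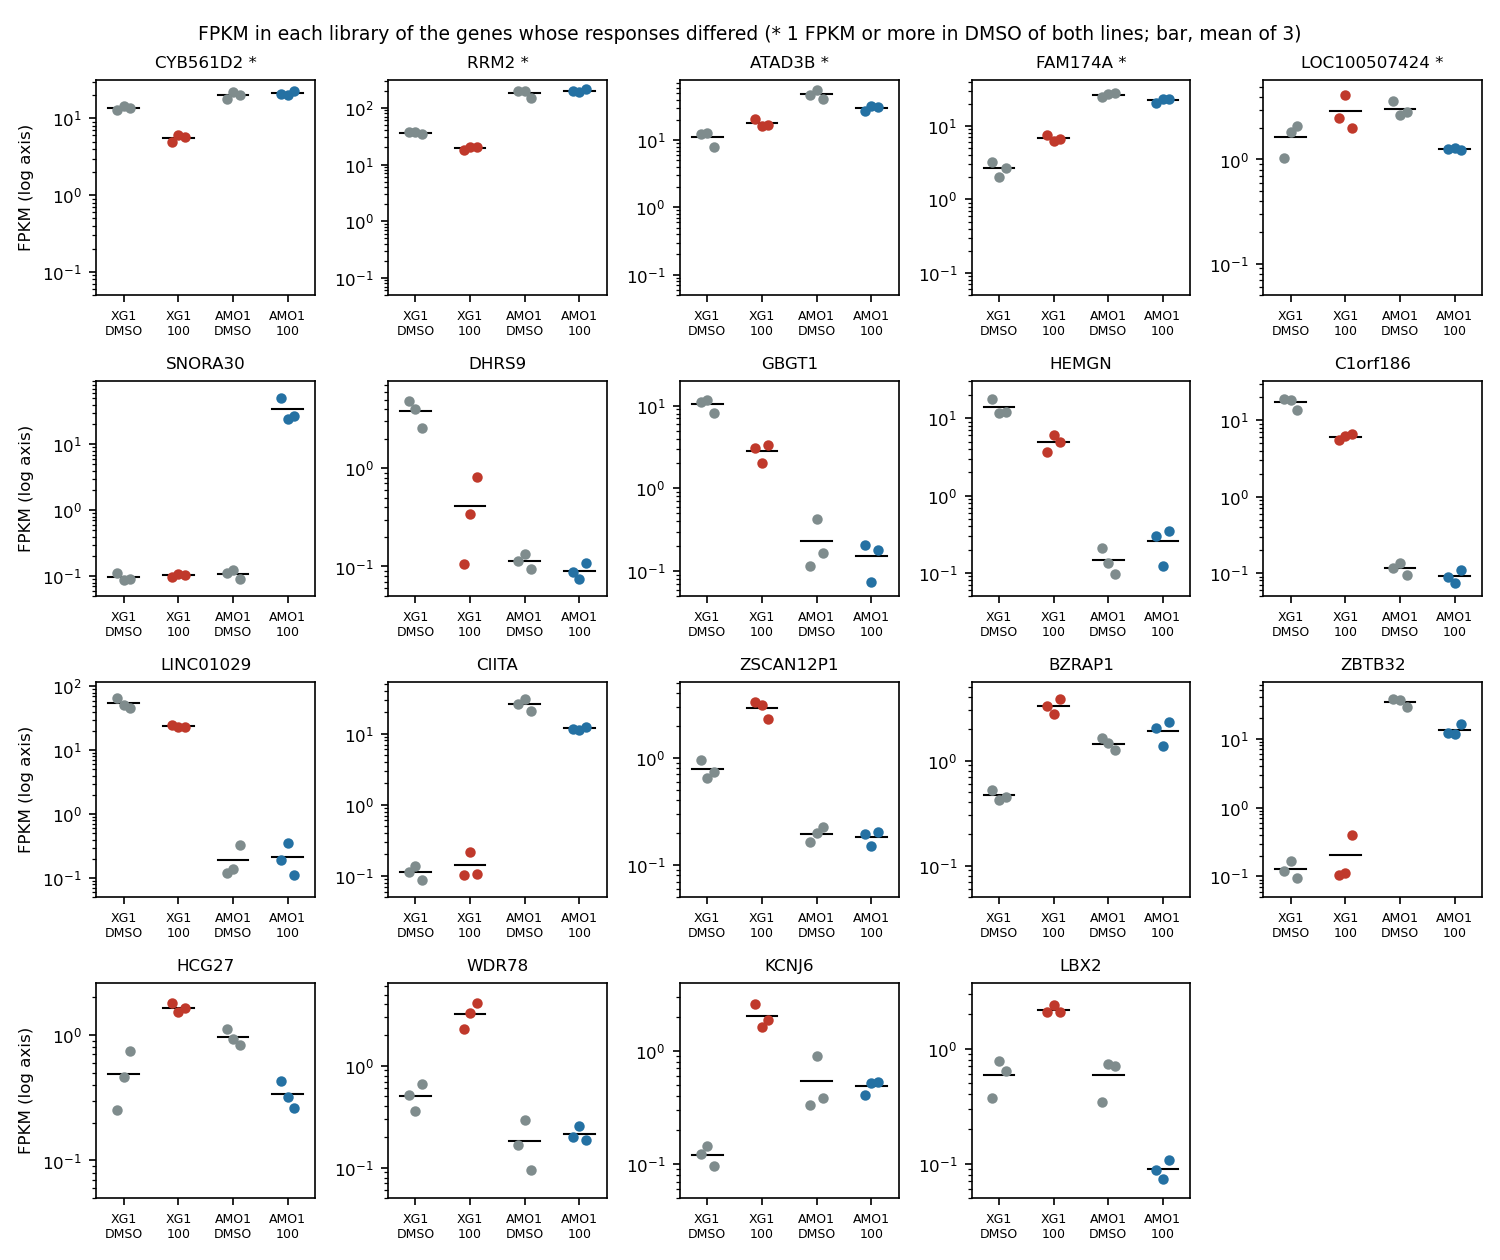
FPKM of the 19 called genes in each of the 12 libraries, on log axes whose range differs by gene. Points are single libraries, bars are means of 3, and asterisks mark the 5 genes at 1 FPKM or more in DMSO of both lines. RRM2 drops in XG1 from 36.4 to 19.7 FPKM and not in AMO1, while SNORA30 sits near 0.1 in all groups except AMO1 at 100 nM.

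Genes that were expressed in XG1 and near the floor in AMO1 supplied 5 of the 8 negative differences. Floor means the commonest low value of a library, 0.0745 to 0.133 FPKM here. HEMGN is a nuclear protein of erythroid precursors. It was at 17.9, 11.8 and 11.9 FPKM in XG1 DMSO and at 3.61, 6.06 and 4.96 at 100 nM, and at 0.346 or less in all 6 AMO1 libraries. The XG1 groups did not overlap. HEMGN fell by 1.34 log2 in XG1 (adjusted p 0.000494), with a difference of -1.47 ± 0.29 (adjusted p 0.0483) that lost its call at -1.43 (adjusted p 0.0607) without AMO1 DMSO replicate 3. C1orf186, now named RHEX, encodes a regulator of erythropoietin signalling in red cell precursors. It was at 18.9, 18.6 and 13.7 FPKM in XG1 DMSO and at 5.44, 6.26 and 6.53 at 100 nM, with a difference of -1.31 ± 0.25 (adjusted p 0.0436).

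GBGT1, a glycosyltransferase that makes the Forssman glycolipid, went from 11.2, 11.8 and 8.03 FPKM to 3.07, 2.01 and 3.35 in XG1, a difference of -1.49 ± 0.26 (adjusted p 0.0164). DHRS9, a short-chain dehydrogenase that acts on retinoids and steroids, went from 4.81, 4.04 and 2.54 FPKM to 0.106, 0.340 and 0.806. In both genes every XG1 library at 100 nM lay below every DMSO library. The DHRS9 difference was -1.73 ± 0.27 (adjusted p 0.0152). LINC01029, a long non-coding RNA, went from 65.0, 51.8 and 45.6 FPKM to 24.8, 23.1 and 23.3, a difference of -1.17 ± 0.23 (adjusted p 0.0483). In AMO1 GBGT1, DHRS9 and LINC01029 stayed at 0.421 FPKM or less in all 6 libraries.

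The erythroid marker list as a whole had a median difference of -0.14 log2 over its 24 tested members, beside 0.07 over all genes, with 8 above 0. In XG1 2 of the 24 fell and 0 rose, where 3.98% of all genes fell, and in AMO1 0 passed in either direction. The median difference was -0.02 and 3 fell in XG1 without AMO1 DMSO replicate 3. The 2 called with all libraries were HEMGN and KLF1. KLF1, an activator of globin and red cell membrane genes, went from 54.8, 59.5 and 56.1 FPKM to 22.7, 16.9 and 16.6 in XG1 and was at 0.280 to 1.18 in AMO1. It fell by 1.56 log2 in XG1 (adjusted p 0.000123), and its difference of -1.39 missed the threshold (adjusted p 0.0607). The fetal globin gene HBG1 was at 1170 to 1400 FPKM in XG1 DMSO and 1220 to 1300 at 100 nM and did not pass. GATA1, the master factor of the lineage, was at 26.3 to 29.9 FPKM in DMSO and 18.7 to 22.3 at 100 nM and did not pass. KLF1, HBG1 and GATA1 were named after their values were seen. The marker list's summed level was 4730 to 5170 FPKM over all 6 XG1 libraries.

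Genes that AMO1 expresses and XG1 does not gave 2 positive differences, CIITA and ZBTB32. CIITA is the transactivator that switches on the MHC class II genes, which present antigen on B cells. It was at 26.2, 30.3 and 20.7 FPKM in AMO1 DMSO and at 11.6, 11.4 and 12.5 at 100 nM, and at 0.214 or less in the 6 XG1 libraries. The AMO1 groups were apart. CIITA fell by 1.04 log2 in AMO1 (adjusted p 0.00115), a difference of 1.08 ± 0.22 (adjusted p 0.0486). ZBTB32, a zinc finger repressor of activated lymphocytes, was at 37.4, 36.8 and 28.7 FPKM in AMO1 DMSO and at 12.1, 11.8 and 16.1 at 100 nM, and at 0.396 or less in XG1. It fell by 1.3 log2 in AMO1 (adjusted p 0.000194), a difference of 1.39 ± 0.24 (adjusted p 0.0164).

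The class II genes that CIITA activates did not pass the test. Of the 12 class II list members tested, CIITA alone passed in AMO1. HLA-DRA, the class II alpha chain, had a mean of 424 FPKM in AMO1 DMSO and 479 at 100 nM, and CD74, the invariant chain, 383 and 430. The list's median difference was 0.09 log2, beside 0.07 over all genes. Of 16 plasma cell markers tested, SLAMF7 and TNFRSF13B fell in AMO1 and FKBP11 rose in XG1. Of all genes, 1.76% fell in AMO1 and 2.63% rose in XG1. Without AMO1 DMSO replicate 3, 3 fell in AMO1, and 2 rose and 1 fell in XG1. There 7.23% of all genes fell in AMO1, and 421 of 12204 rose and 6.29% fell in XG1. The median difference of these markers was 0.24 log2, the highest of any list, with 11 above 0. Markers that XG1 hardly expresses cannot fall there. Over the 8 markers present in DMSO of both lines the median was 0.12, beside 0.045 over all such genes. The limma difference test called 0 of them, and at an unadjusted p under 0.05 3 were more positive and 0 more negative. Of all 12204 genes, 753 were more positive and 318 more negative at that p. SLAMF7, a surface receptor of plasma cells, went from a mean of 33.1 to 17.0 FPKM in AMO1 and was under 0.4 in XG1. TNFRSF13B, the receptor TACI, went from a mean of 11.2 to 5.08 FPKM in AMO1. Its groups overlapped, at 15.8, 11.5 and 6.29 FPKM in DMSO and 6.35, 2.66 and 6.24 at 100 nM. FKBP11, a chaperone of secretory cells, went from 4.18 to 9.53 FPKM in XG1 and from 200 to 194 in AMO1. Their differences of 1.04, 1.00 and 1.02 log2 had adjusted p of 0.179, 0.372 and 0.174. These genes other than CIITA were named after their values were seen.

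Genes near or below 1 FPKM in XG1 DMSO that rose there made up most of the remaining positive differences. KCNJ6, an inward-rectifier potassium channel, went from 0.122, 0.145 and 0.0961 FPKM to 2.56, 1.62 and 1.88 in XG1, and in AMO1 from 0.335, 0.902 and 0.386 to 0.410, 0.520 and 0.530. WDR78, an axonemal dynein chain, went from 0.511, 0.360 and 0.655 FPKM to 2.28, 3.33 and 4.10 in XG1 and stayed at 0.293 or less in AMO1. Both were apart in XG1 and overlapped in AMO1. Their differences were 1.45 ± 0.25 and 1.43 ± 0.25 (both adjusted p 0.0164). LBX2, a homeobox gene with an antisense neighbour whose reads cannot be told apart without strand, went from 0.372, 0.777 and 0.634 FPKM to 2.08, 2.38 and 2.07 in XG1. In AMO1 it went from 0.344, 0.736 and 0.704 to 0.0881, 0.0743 and 0.108. The groups were apart in both lines, and the difference was 1.54 ± 0.25 (adjusted p 0.0164). HCG27, an RNA gene of the HLA region, had the same shape, with means of 0.486 and 1.65 FPKM in XG1 and 0.957 and 0.338 in AMO1, and a difference of 1.39 ± 0.26 (adjusted p 0.031). BZRAP1 (0.466 to 3.29 FPKM in XG1, 1.45 to 1.90 in AMO1) and the pseudogene ZSCAN12P1 (0.783 to 2.93 and 0.196 to 0.183) had differences of 1.31 and 1.15 (adjusted p 0.0164 and 0.0483) and were chosen after their values were seen. ZSCAN12P1 lost its call at 1.13 (adjusted p 0.0524) without AMO1 DMSO replicate 3. Because 1 was added before the log, these values understate the ratio of low genes. KCNJ6, WDR78, LBX2 and ZSCAN12P1 reached the mean of 1 FPKM needed for testing only in treated XG1, and HCG27 only in XG1 at 100 nM. They entered the test through the group where they are high, so their adjusted p are weaker evidence. With no filter on low values KCNJ6, WDR78 and LBX2 were still called, and HCG27 and ZSCAN12P1 were not.

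SNORA30, a small nucleolar RNA, had the largest difference of the 19 called genes and was named after its value was seen. It was at 50.8, 24.2 and 27.0 FPKM in AMO1 at 100 nM and between 0.0876 and 0.126 FPKM in the other 9 libraries. Its difference was -4.89 ± 0.27 (adjusted p 1.29e-09). SNORA30 reached the mean of 1 FPKM needed for testing only in AMO1 at 100 nM, and was also called with no filter on low values. In AMO1 at 1000 nM its mean was again 0.0831 FPKM. Small nucleolar RNAs carry no poly(A) tail, on which this library method starts. Whether the method accounts for the SNORA30 values was not tested. Another gene of that class, SNORA5C, also went from the floor to a high value within a group. SNORA5C, chosen after its values were seen, was at 0.113, 0.130 and 41.2 FPKM in AMO1 DMSO and at 95.3, 51.7 and 22.5 in XG1 DMSO, with a difference of -8.42 ± 1.55 (adjusted p 0.0607).

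In XG1 9 of 26 tested genes of the ATF4 list fell, ATF4 among them, and in AMO1 1 fell, where 3.98% and 1.76% of all genes fell. ATF4 is a transcription factor of the amino acid and protein-folding stress response. It was at 115, 117 and 126 FPKM in XG1 DMSO and at 48.4, 47.7 and 41.0 at 100 nM, and at 513, 489 and 242 and then 246, 281 and 302 in AMO1. The XG1 groups were apart, and in AMO1 replicate 3 of DMSO lay below the treated libraries while the other 2 lay above them. ATF4 fell by 1.37 log2 in XG1 (adjusted p 0.000324) and had -0.51 in AMO1 (adjusted p 0.204). Its difference was -0.86 ± 0.28 (adjusted p 0.287), and -0.51 without AMO1 DMSO replicate 3 (adjusted p 0.174). No list member rose in XG1, while in AMO1 CHAC1 fell and SESN2 rose. The median difference was -0.21, beside 0.07 over all genes, with 4 above 0. The limma difference test called 0 members (5 more negative in XG1 and 0 more positive at an unadjusted p under 0.05). Of all 12204 genes, 318 were more negative and 753 more positive at that p. Without that library 11 fell in XG1 and 6 in AMO1 (6.29% and 7.23% of all genes), and the median difference was -0.12, beside 0.17, with 9 above 0.

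DDIT4 and DDIT3 were nearest to a call among them. DDIT4, an inhibitor of mTORC1, went from a mean of 54.5 to 19.1 FPKM in XG1 and from 205 to 177 in AMO1, a difference of -1.28 (adjusted p 0.117). DDIT3, the stress factor CHOP, went from 27.8 to 13.6 FPKM in XG1 and from 46.3 to 42.8 in AMO1, a difference of -0.88 (adjusted p 0.0967). Both were called when libraries were centred on their medians, DDIT4 at -1.45 (adjusted p 0.0246) and DDIT3 at -1.05 (adjusted p 0.0246). All members of the list except ATF4 were named after their values were seen.

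The 26 tested p53 target genes had a median difference of -0.26 log2, beside 0.07 over all genes, with 8 above 0. limma called 0 of them, and at an unadjusted p under 0.05 7 were more negative in XG1 and 2 more positive, while of all 12204 genes 318 were more negative and 753 more positive. BBC3, SESN2 and TP53INP1, an autophagy regulator, were called when libraries were centred on their medians, at -1.17 (adjusted p 0.033), -1.05 (adjusted p 0.0381) and -0.92 (adjusted p 0.0261). That setting called 53 genes more negative and 13 more positive. Quantile normalization called TP53INP1 (-0.88, adjusted p 0.0386) and ZMAT3 (-0.85, adjusted p 0.0432), but not BBC3 or SESN2. None of these genes was called without AMO1 DMSO replicate 3 or with a pseudocount of 5. The list's median change was 0.03 in XG1 and 0.26 in AMO1. In XG1 2 members rose (BTG2, GDF15) and 3 fell (AEN, BBC3, ZMAT3). In AMO1 2 rose (GDF15, SESN2) and 0 fell. Of all genes, 2.63% rose and 3.98% fell in XG1, and 0.434% rose and 1.76% fell in AMO1. BBC3, the pro-death protein PUMA, went from a mean of 46.6 to 27.7 FPKM in XG1 and from 158 to 183 in AMO1, a difference of -1 log2 (adjusted p 0.165). SESN2, a sestrin that restrains mTORC1 and is also in the ATF4 list, went from 14.3 to 13.2 FPKM in XG1 and from 33.8 to 57.5 in AMO1, a difference of -0.88 (adjusted p 0.157). The secreted cytokine GDF15 rose in both lines, from 39.4 to 88.2 FPKM and from 28.9 to 104. CDKN1A, the p21 inhibitor of cell cycle kinases, was at 0.615 to 0.870 FPKM in XG1 DMSO and 0.330 to 1.19 at 100 nM. In AMO1 it was at 263, 229 and 131 FPKM and then at 270.0, 228 and 319. Both lines' groups overlapped, and its difference was -0.38 ± 0.34 (adjusted p 0.797). With AMO1 DMSO replicate 3 left out, the list's median difference was -0.11, beside 0.17 over all genes. Then 3 members rose and 5 fell in XG1, and 2 rose and 2 fell in AMO1. Of all 12204 genes, 421 then rose and 768 fell in XG1, and 60 rose and 882 fell in AMO1. The p53 genes other than CDKN1A were named after their values were seen.

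**Figure D3:**
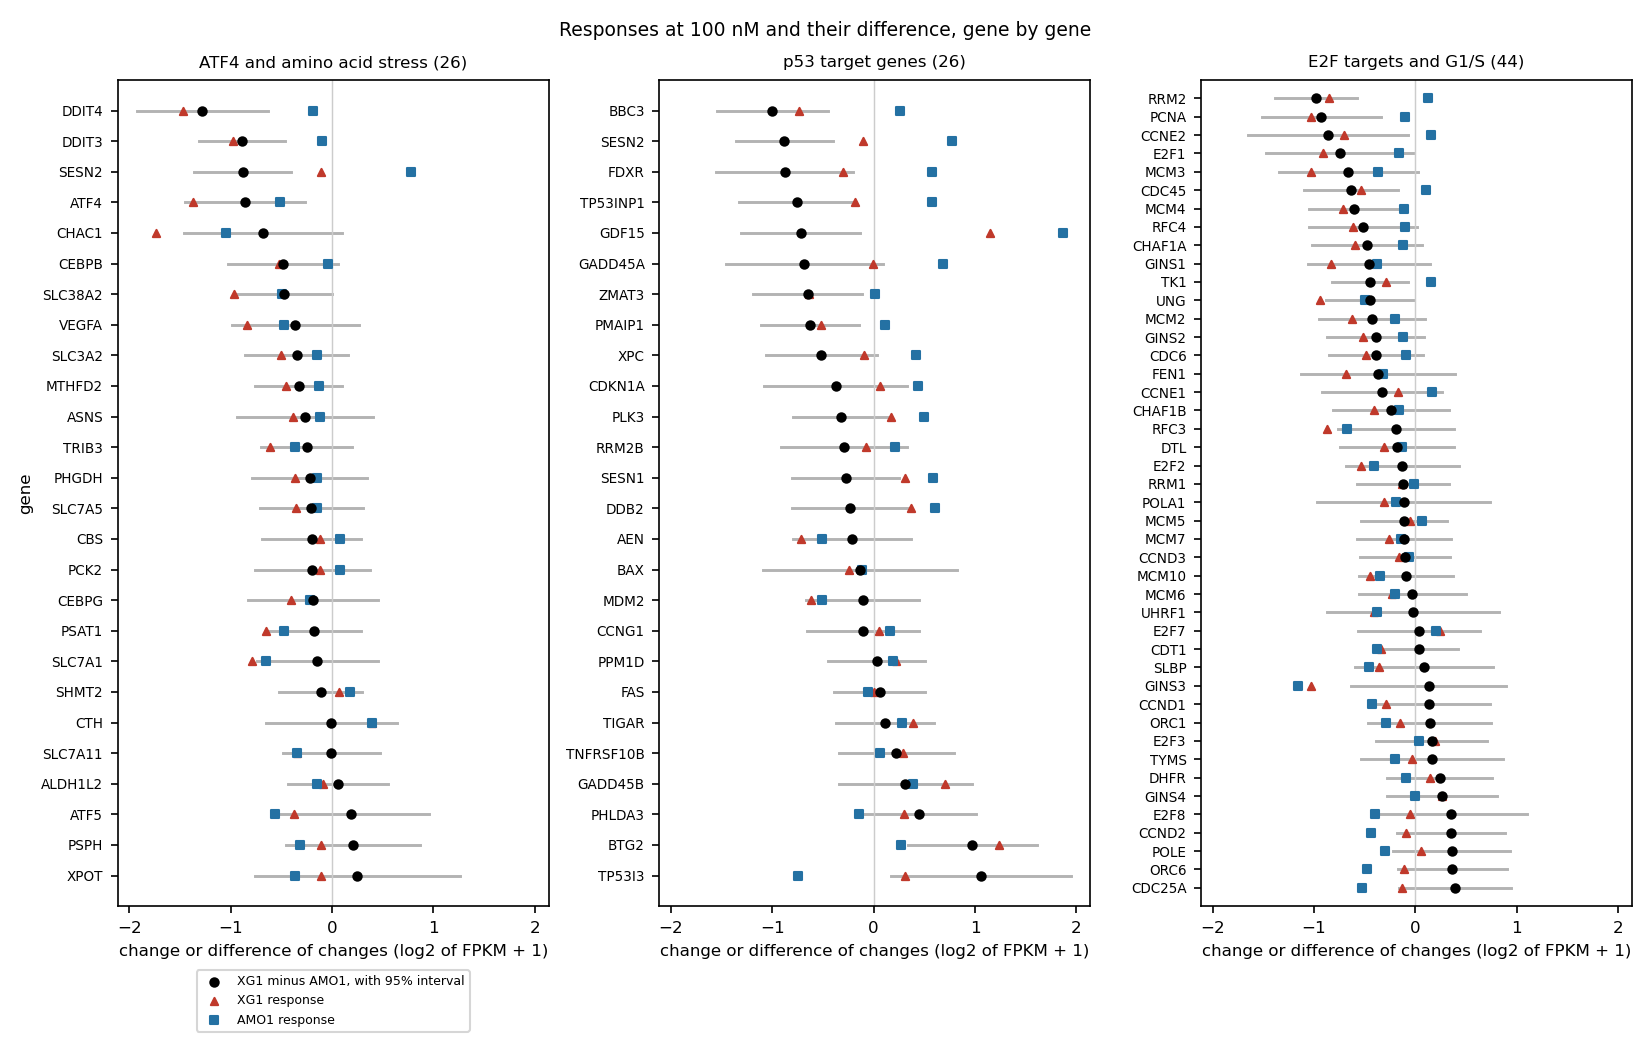
Log2 change at 100 nM in XG1 (triangles) and AMO1 (squares), and their difference with its 95% interval (circles and bars), for the tested members of the ATF4, p53 and E2F lists, sorted by the difference. RRM2, at -0.98, was the only one of these genes whose difference passed the adjusted threshold.

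For CDK7, its partners and 6 other regulators the difference of responses did not pass the threshold. CDK7 itself was at 18.1, 14.3 and 12.6 FPKM in XG1 DMSO and 9.13, 11.2 and 11.1 at 100 nM, and at 9.36, 12.0 and 14.7 and then 8.74, 7.05 and 8.30 in AMO1. All treated libraries lay below their DMSO libraries in both lines, although neither change passed (adjusted p 0.178 and 0.200). Its difference was 0.04, with a 95% interval of -0.54 to 0.63. CCNH and MNAT1 had differences of 0.12 (-0.73 to 0.96) and 0.29 (-0.47 to 1.05). The signs of CDK7 and CCNH flipped with library centring and without AMO1 DMSO replicate 3. MYC, a growth transcription factor, was at 77.9, 62.1 and 37.1 FPKM in XG1 DMSO and at 26.7, 26.4 and 26.3 at 100 nM. In AMO1 it was at 30.4, 32.0 and 62.4 and then at 24, 19.3 and 23.9. Treated libraries lay below DMSO in both lines, and the fall passed in XG1 (-1.07, adjusted p 0.0341) but not in AMO1 (-0.79, adjusted p 0.172). The difference was -0.27 (-1.13 to 0.59, adjusted p 0.906), and -0.60 without AMO1 DMSO replicate 3.

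E2F1, the transcription factor of the replication genes above, had -0.91 in XG1 (adjusted p 0.0293) and -0.17 in AMO1 (adjusted p 0.847). In AMO1 DMSO it was at 26.3, 28.6 and 12.7 FPKM, and its difference was -0.75 (adjusted p 0.548), or -0.40 without replicate 3. MCL1, a survival protein of the BCL2 family with short-lived RNA, was at 76.0 to 99.1 FPKM in XG1 DMSO and 114 to 133 at 100 nM, and at 493 to 632 and then 592 to 844 in AMO1. Neither change passed, and its difference was 0.13 (-0.31 to 0.57), with a sign that flipped with centring. IRF4 had a difference of 0.40 (adjusted p 0.631) and was at the floor in XG1.

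Among genes that changed in both lines, none passed the test of a difference. For 91 of the 107 the 95% interval of the difference lay within 1 log2 of 0, as it did for 6602 of the 8949 genes (73.8%). The 107 had a median difference of -0.01 (-0.94 to 0.90), and the XG1 change was the larger in 56. By the limma difference test 0 of them were called, beside 5 of the 8949 (0.0559%). That share is too low for 0 of 107 to set them apart. At an unadjusted p under 0.05 the same test passed 585 of the 8949 (6.54%). It also passed some of the 107, among them OPN3 (p 0.00207) and EIF4A2 (p 0.00302). When AMO1 DMSO replicate 3 was left out, 344 genes were called in both arms, of which 319 fell, 23 rose and 2 moved in opposite directions, and the difference test called 3 of them. TEX19, a germ cell gene, fell in both lines: from 5.84, 5.39 and 5.53 FPKM to 0.377, 0.436 and 1.11 in XG1 and from 29.4, 32.7 and 20.1 to 6.57, 4.55 and 6.76 in AMO1. Its changes were -2.03 and -2.02 log2, a difference of -0.01 (95% interval -0.62 to 0.59). MYB, a transcription factor of blood progenitors, had -1.04 and -1.05, a difference of 0.01 (-0.55 to 0.57). HSPA8, the constitutive HSP70 chaperone, had -1.49 and -1.32, a difference of -0.17 (-0.82 to 0.49). Genes of these last paragraphs on shared changes were chosen after their values were seen.

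Host genes of small nucleolar RNAs, which carry those RNAs in their introns, had the lowest median change of any list in both lines, -0.61 in XG1 and -0.50 in AMO1, and a median difference of -0.04. Of 20 tested, 10 fell in XG1 and 6 in AMO1 (3.98% and 1.76% of all genes), and 0 rose. SNHG12 went from 77.0, 66.9 and 82.4 FPKM to 14.3, 19.2 and 16.6 in XG1 and from 79.2, 73.8 and 59.7 to 14.8, 19.8 and 22 in AMO1. The groups were far apart in both lines, and its difference was -0.25 (95% interval -0.85 to 0.36). Without AMO1 DMSO replicate 3, 12 fell in XG1 and 11 in AMO1 (6.29% and 7.23% of all genes). Of 32 splicing factors, 5 fell in XG1 and 4 in AMO1, and 0 rose. These counts were 11 and 9 without that library. SRSF3, which regulates splicing and its own RNA, had -1.44 and -0.94, SRSF7 -0.92 and -0.82, and RBM39 -1.13 and -1.55. Of 37 genes of tRNA modification and ribosome assembly, 9 fell in XG1 and 3 in AMO1, and 0 rose, and without that library 11 and 10 fell. METTL1, which methylates tRNA, had -1.83 and -1.11, a difference of -0.71 (-1.28 to -0.15, adjusted p 0.416).

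Some genes of transcription rose or fell in both lines. POLR2A, the gene of RPB1, the large catalytic subunit of the polymerase, was at 36.7, 40.1 and 36.1 FPKM in XG1 DMSO and at 77.9, 64.9 and 70.9 at 100 nM, and at 71.5, 64.0 and 41.1 and then 203, 151 and 188 in AMO1. Every treated library lay above every DMSO library of its line. The rises were 0.90 and 1.63 log2, a difference of -0.73 (-1.25 to -0.21, adjusted p 0.314). CDK12, an elongation kinase, had -1.03 and -0.65. HIST2H2BE, a histone gene with a polyadenylated transcript, had 1.05 and 1.99, a difference of -0.94 (-1.56 to -0.32, adjusted p 0.262), and was called at -1.11 when libraries were centred (adjusted p 0.0293). JUNB, an AP-1 factor, had 0.90 and 0.70. Of the 37 genes in the list of transcription kinases, TFIIH and polymerase subunits, 2 rose and 3 fell in XG1 and 1 rose and 1 fell in AMO1, where 2.63% and 3.98% of all genes rose and fell in XG1 and 0.434% and 1.76% in AMO1. Without AMO1 DMSO replicate 3, 1 rose and 0 fell in AMO1, and the XG1 counts stayed the same.

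**Figure D4:**
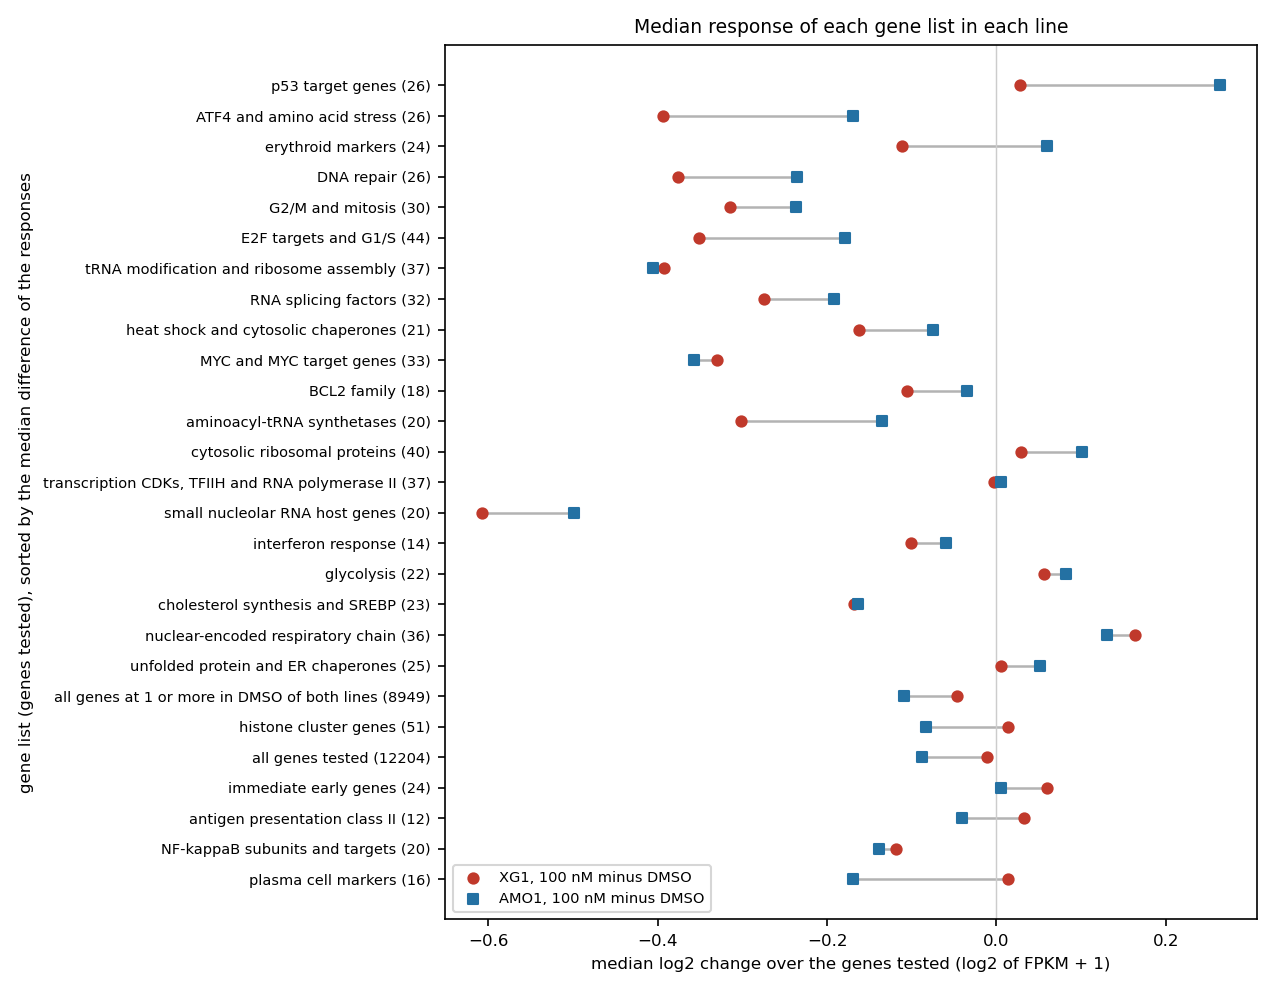
Median log2 change at 100 nM over the tested members of each gene list with 10 or more genes tested, in XG1 (circles) and AMO1 (squares), with the number tested in brackets, sorted by the median difference. The p53 list lies at 0.03 in XG1 and 0.26 in AMO1, and the snoRNA host genes at -0.61 and -0.50.

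In the other lists the limma difference test called 0 members, and at an unadjusted p under 0.05 the histone list, the longest, held 6 more positive and 5 more negative, beside 753 and 318 of the 12204 genes (8.78% in all). Median differences were -0.14 for 30 G2/M genes, -0.14 for 26 DNA repair genes, -0.10 for 33 MYC target genes, -0.10 for 21 cytosolic chaperones, -0.08 for 18 BCL2 family genes and -0.07 for 20 aminoacyl-tRNA synthetases. They were -0.06 for 40 cytosolic ribosomal proteins, -0.04 for 22 glycolysis genes, -0.04 for 14 interferon genes, -0.02 for 23 cholesterol genes, -0.01 for 36 respiratory chain genes and -0.00113 for 25 ER chaperones. Among these other lists with 10 or more genes tested, medians above 0 were found for 51 histone genes (0.05), 24 immediate early genes (0.08) and 20 NF-kappaB genes (0.12). G2/M genes fell in XG1 (5 of 30) and AMO1 (2), MYC targets in 6 of 33 and 1, and DNA repair genes in 6 of 26 and 0, where 3.98% and 1.76% of all genes fell. Those counts became 10 and 8, 13 and 12, and 8 and 3 without AMO1 DMSO replicate 3, where 6.29% and 7.23% of all genes fell. Leaving out that library also turned most negative medians of lists positive, as the median over all genes went from 0.07 to 0.17. The G2/M, MYC target and E2F lists then had 0.01, 0.10 and 0.02, the synthetases and cytosolic chaperones 0.08 and 0.06, the BCL2 family 0.06 and the ribosomal proteins 0.11. Glycolysis genes had 0.13, cholesterol genes 0.08, respiratory chain genes 0.12, ER chaperones 0.03 and interferon genes 0.00394. The lists of small nucleolar RNA hosts, of tRNA modification and ribosome assembly and of transcription had 0.06, 0.03 and 0.06. The histone list turned from 0.05 to -0.03, and the DNA repair and splicing lists stayed below 0 at -0.03 and -0.0031.

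At 1000 nM, with the same DMSO libraries and so not independent, every called gene except SNORA30 had the sign it had at 100 nM. The 1000 nM differences were -1.97 for DHRS9, -2.19 for GBGT1, -1.99 for HEMGN, -1.70 for C1orf186 and -1.56 for LINC01029. CIITA had 1.95 and ZBTB32 2.43, with mean levels in AMO1 of 5.70 and 5.45 FPKM at 1000 nM. RRM2 had -0.78 at 1000 nM (adjusted p 0.0697), where it also fell in AMO1 by 0.46 log2 (adjusted p 0.0261). CYB561D2 had -0.26 (adjusted p 0.821), FAM174A 0.89 (adjusted p 0.0744) and ATAD3B 1.51 (adjusted p 0.00501). KCNJ6, WDR78 and LBX2 had 1.06, 0.92 and 0.85, with adjusted p of 0.0549, 0.0911 and 0.134. SNORA30 had 0.02. Whether the 100 nM and 1000 nM differences differ was not tested.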

How the data were processed

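RNA from 12 libraries (2 lines, DMSO or 100 nM, 3 per group, 6 h) was analysed, and 6 libraries at 1000 nM entered the fit. The labels gave groups and replicate numbers. The QuantSeq method, named in the labels' protocols, reads 3′ ends of polyadenylated RNA. HISAT2, Cuffnorm and hg19 are named in the submitters' processing notes; for versions, annotation, strand setting and read counts nothing is given in the sources used here. The authors' deposited values are taken as FPKM from the name of Cuffnorm, since the headers say only expression. Division by transcript length does not suit 3′ libraries, so a gene was compared between libraries only. The depth is unknown, so no counting interval was set. The tables also hold 92 spike-ins.

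Genes with a mean of 1 FPKM or more in at least 1 of 6 groups were tested with limma 3.58.1 (R 4.3.3, statmod 1.5.0; trend and robust) on log2(FPKM + 1), with 1 mean per group, two-sided, and Benjamini-Hochberg adjustment over 12204 genes at 0.05. ± gives the SE. The difference test was also run on simulated data with the same 12204 genes and a normally distributed spread. It called 38 of 100 genes with a true difference of 1 log2, 92 of 100 with 2, and 4 of 12004 unchanged genes. The changed genes were drawn only from well expressed genes present in both lines, so 38 and 92 do not hold for other genes. Genes were named by rule: called genes with non-overlapping groups in at least 1 line (up to 12 per direction among genes of both lines, 5 among others), from each of 27 lists up to 3 called members each way, genes called in opposite directions (0 found), and CDK7, CCNH, MNAT1, MYC, E2F1, CDKN1A, MCL1, IRF4 and ATF4. Small RNA and LOC genes were to be counted only. The comparison, the lists and the rule were chosen with earlier results of these data known. Alternatives were the pseudocount, the low-value filter, scaling, the libraries fitted, the variance model, a replicate block and leaving out each library.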

Additional observations from a re-analysis of the deposited data

Results flagged for a closer look

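The test of the difference itself was past the threshold for 19 genes, which is why each is listed here. The 8 genes more negative in XG1 had log2 differences of -4.89 (SNORA30), -1.73 (DHRS9), -1.49 (GBGT1), -1.47 (HEMGN), -1.31 (C1orf186), -1.23 (CYB561D2), -1.17 (LINC01029) and -0.981 (RRM2). The 11 more positive had 1.08 (CIITA), 1.15 (ZSCAN12P1), 1.29 (ATAD3B), 1.31 (BZRAP1), 1.35 (FAM174A), 1.38 (LOC100507424), 1.39 (ZBTB32), 1.39 (HCG27), 1.43 (WDR78), 1.45 (KCNJ6) and 1.54 (LBX2). In 14 of the 19, DMSO of at least 1 line was under 1 FPKM. SNORA30, KCNJ6, WDR78, LBX2, ZSCAN12P1 and HCG27 reached the mean of 1 FPKM needed for testing only in treated groups.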

How the results depend on the processing

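The 19 calls became 6 with a pseudocount of 0.1, 67 with 5, 4 with a minimum group mean of 5, 10 with no filter, 66 centred on library medians, 76 with quantile normalization, 10 with spike-in scaling and 41 at an adjusted p of 0.1, a threshold added after seeing the data. For the 5 genes present in both lines the counts were 1, 17, 1, 1, 39, 34, 1 and 13 in the same order, 2 with only the 12 libraries fitted and 8 with neither trend nor robust estimation. Testing only the 8949 genes gave 0 by limma, beside 585 at an unadjusted p under 0.05 in the main fit. Leaving out 1 library gave 3 (without AMO1 DMSO replicate 2, or AMO1 100 nM replicate 1) to 35 (without AMO1 DMSO replicate 3), and 0 to 13 of the genes in both lines. The XG1 response had 1499 calls when centred, 1878 with quantile normalization, and 396 (without XG1 DMSO replicate 2) to 1189 (without AMO1 DMSO replicate 3) with 1 library left out. The AMO1 response had 137 and 453 calls with pseudocounts of 0.1 and 5, 477 centred, 459 with quantile normalization, and 100 (without AMO1 100 nM replicate 2) to 942 (without AMO1 DMSO replicate 3). The XG1 changes come from XG1 libraries alone, so leaving out AMO1 DMSO replicate 3 could not alter their SD of 0.447 log2 over the 8949 genes. By the design of the fit, an AMO1 library enters the XG1 test only through the spread fitted for both lines. The cause of the changed AMO1 counts was not tested.

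Of the 19 genes, SNORA30 was called in all 22 alternatives that tested it, DHRS9 in 19 of 21, LBX2 in 18 of 21, FAM174A in 17 of 23, GBGT1 in 17 of 22, KCNJ6 in 15 of 21, WDR78 in 14 of 21, ZBTB32 in 14 of 22 and BZRAP1 in 13 of 21. The other 10 were called in fewer: HCG27 in 8 of 21, C1orf186 in 7 of 22, CYB561D2 in 6 of 23, HEMGN and LINC01029 in 6 of 22, RRM2 and ATAD3B in 5 of 23, CIITA in 5 of 22, LOC100507424 in 4 of 22 and ZSCAN12P1 in 4 of 21. None of the 19 reversed in these alternatives. RRM2 lay between -1.15 and -0.83. CDK7 reversed when centred (-0.13), with quantile normalization (-0.051) and without XG1 DMSO replicate 3 (-0.07), XG1 100 nM replicate 2 (-0.00187), AMO1 DMSO replicate 3 (-0.10) or AMO1 100 nM replicate 2 (-0.04), and was at most 0.198 with 1 library left out. CCNH reversed when centred (-0.0535) and without the same 4 libraries (-0.02, -0.00776, -0.0061 and -0.13), with a highest value of 0.311. MCL1 reversed when centred (-0.0406) and without AMO1 100 nM replicate 2 (-0.0151), with a highest left-out value of 0.241.

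Same-numbered DMSO and 100 nM libraries deviated from their group means with correlations of -0.193 to 0.0807, so the replicate numbers were not taken to pair the samples. With a replicate block there was 1 call of the difference, 0 in both lines' set, 486 in XG1 and 123 in AMO1. Depth is unknown. On simulated data a difference of 1 log2 was called in 38 of 100 well expressed genes of both lines. The smallest difference called here was 0.98.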
